A study of Mus musculus with 6 samples.

Results

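A set of 10 secretory lineage regulators is described here in Paneth cells (PCs) isolated by sorting, which sit at the bottom of small intestinal crypts and release antimicrobial granules. The genes were chosen by name, as Atoh1, Gfi1, Sox9, Spdef, Foxa3, Klf4, Creb3l1, Creb3l4, Bhlha15 and Nupr1, and each was found in the count table by its Ensembl identifier, which gave 10 genes of 55414. All 10 had enough counts to be tested, among 13026 tested genes. Libraries came from 3 mice that received phosphate-buffered saline (PBS) and 3 mice that received tumour necrosis factor (TNF), 1 library per mouse, with PCs sorted 15 h after treatment. All 6 mice were C57BL/6J animals labelled IFNAR1 KO, so both groups carried the same knockout, of a type I interferon receptor chain, and there was no wild-type group. Sex, age and dose are not in the labels.

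Secretory cells of the gut arise from progenitors that escape Notch signalling. Active Notch switches on Hes1, a repressor of Atoh1, and cells that keep Atoh1, a basic helix-loop-helix factor, enter the secretory lineage. Gfi1, a zinc finger repressor downstream of Atoh1, then steers cells towards goblet cells and PCs and away from the enteroendocrine fate, and Sox9, a target of Wnt signalling, is needed for PCs to form. Spdef, an Ets factor, drives the maturation of goblet cells and PCs, while Foxa3 and Klf4 are known from goblet cells. Creb3l1 and Creb3l4 are bZIP factors held in the endoplasmic reticulum (ER) membrane until they are cleaved, Bhlha15 (MIST1) scales up the granule and export machinery of professional secretory cells, and Nupr1 is a small nuclear protein induced by stress.

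The promoters of 5 members are shown: Nupr1 and Bhlha15, which had the largest log2 fold changes of the 10 in size, Atoh1, which heads the lineage, and Creb3l1 and Klf4 as examples of promoters that hold the motifs searched. Each is the 200 bases before the start site of the gene's canonical transcript and the first 10 bases after it, read on the gene's strand from GRCm39. Capitals mark the E-box letters CAGCTG, bound by ATOH1 and MIST1, and the ACGTG core of sites for XBP1, ATF6 and the CREB3 family, on either strand.
Nupr1, chr7:126224839-126225048, minus strand: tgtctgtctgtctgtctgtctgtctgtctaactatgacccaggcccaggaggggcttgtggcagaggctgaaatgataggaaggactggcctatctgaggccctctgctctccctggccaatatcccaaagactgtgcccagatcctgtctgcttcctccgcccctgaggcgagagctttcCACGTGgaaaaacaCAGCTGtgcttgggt
Bhlha15, chr5:144126886-144127095, plus strand: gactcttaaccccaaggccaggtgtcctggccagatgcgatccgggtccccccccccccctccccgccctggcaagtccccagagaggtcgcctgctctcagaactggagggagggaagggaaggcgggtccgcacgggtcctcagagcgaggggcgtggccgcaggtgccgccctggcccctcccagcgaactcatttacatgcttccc
Atoh1, chr6:64705909-64706118, plus strand: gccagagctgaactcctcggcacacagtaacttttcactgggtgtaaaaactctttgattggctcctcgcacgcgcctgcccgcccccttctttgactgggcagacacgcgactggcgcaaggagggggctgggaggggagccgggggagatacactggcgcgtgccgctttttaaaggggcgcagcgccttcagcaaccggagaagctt
Creb3l1, chr2:91854860-91855069, minus strand: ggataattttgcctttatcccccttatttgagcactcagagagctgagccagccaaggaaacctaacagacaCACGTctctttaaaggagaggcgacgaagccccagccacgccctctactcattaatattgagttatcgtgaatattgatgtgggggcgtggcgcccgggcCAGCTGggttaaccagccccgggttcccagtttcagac
Klf4, chr4:55532457-55532666, minus strand: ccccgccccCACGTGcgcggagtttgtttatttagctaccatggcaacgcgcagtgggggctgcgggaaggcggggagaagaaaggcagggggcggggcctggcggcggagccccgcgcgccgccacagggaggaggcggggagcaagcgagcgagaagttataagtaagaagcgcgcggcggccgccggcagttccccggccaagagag
In the window from 250 bases before to 50 after the start, CAGCTG was found in 2 of the 10 members, Creb3l1 and Nupr1, and in 14.9% of 21757 protein-coding promoters. The ACGTG core was found in 6 members, namely Spdef, Bhlha15, Sox9, Creb3l1, Klf4 and Nupr1, against 20.7% of all promoters. In Nupr1 and Klf4 the core was read on both strands as the palindrome CACGTG, which began 19 bases before the Nupr1 start and 191 bases before the Klf4 start. In Bhlha15 the core lay downstream of the start, at base 38. The MIST1 E-box CATATG was found in 0 members (3.35% of promoters), as was the STAT site TTCNNNGAA (8.82%). The HES repressor site CACNAG was found in 4 members, Atoh1, Creb3l1, Creb3l4 and Nupr1 (42.5% of promoters), the SOX core ACAAT in Sox9 (29.5%), and the NF-kB site in Foxa3 (8.97%). These matches are letters in a window and not measured binding.

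Library totals ran from 12747484 to 17039511 counts, and members had 181 to 19937 counts per library, so counting error alone was 7.43% or less of a value. PC products were abundant in all 6 libraries, with Lyz1 at 134000 to 226000 CPM (read counts relative to library size, TMM-scaled). Of 14 immune cell genes, Cd4, Cd8a and Jchain had 0 counts throughout, which allows up to 0.235 CPM before scaling. Ptprc had 3.89 to 33.8 CPM and Lyz2 13.1 to 27.6 CPM. S100a9 had 0 counts in the PBS libraries and TNF replicate 1, and 26 and 13 counts in TNF replicates 2 and 3. The 12 tuft cell genes, which mark a chemosensory cell type, summed to 505, 1510 and 1860 CPM in the PBS mice and to 639, 1240 and 687 CPM in the TNF mice. Ifnar1, the disrupted gene, was counted at 5.17 to 12.7 CPM, and gene-level counts do not show which exons were read. TNF replicate 1 stood apart from the other TNF libraries: across tested genes its log2 CPM correlated at 0.937 to 0.945 with the PBS libraries and at 0.883 to 0.884 with TNF replicates 2 and 3. Its label was kept, and the members' results are also given for the other 5 libraries. It was singled out by its expression in these same data. All p-values without it therefore depend on a choice made from the data and are descriptive. In bulk RNA, fewer cells of a type and less RNA per cell cannot be told apart.

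Over all 6 libraries, none of the 10 members differed between TNF and PBS past a Benjamini-Hochberg adjusted p of 0.05 (termed 5%). The edgeR quasi-likelihood test called 0 members, where 0% of all 13026 genes were called. At an unadjusted p under 0.05 there was 1 member, Nupr1, against 12.3% of all genes, and DESeq2 and limma-voom also called 0 members. DESeq2 called 2.06% of all genes (1.75% higher and 0.307% lower). Of the members, 4 had a positive log2 fold change (TNF minus PBS) and 6 a negative one, with a median of -0.27 beside 0.00 over all tested genes. The TNF and PBS libraries overlapped for every one of the 10 members, whereas 16.9% of all genes had groups that did not overlap.

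**Figure D1:**
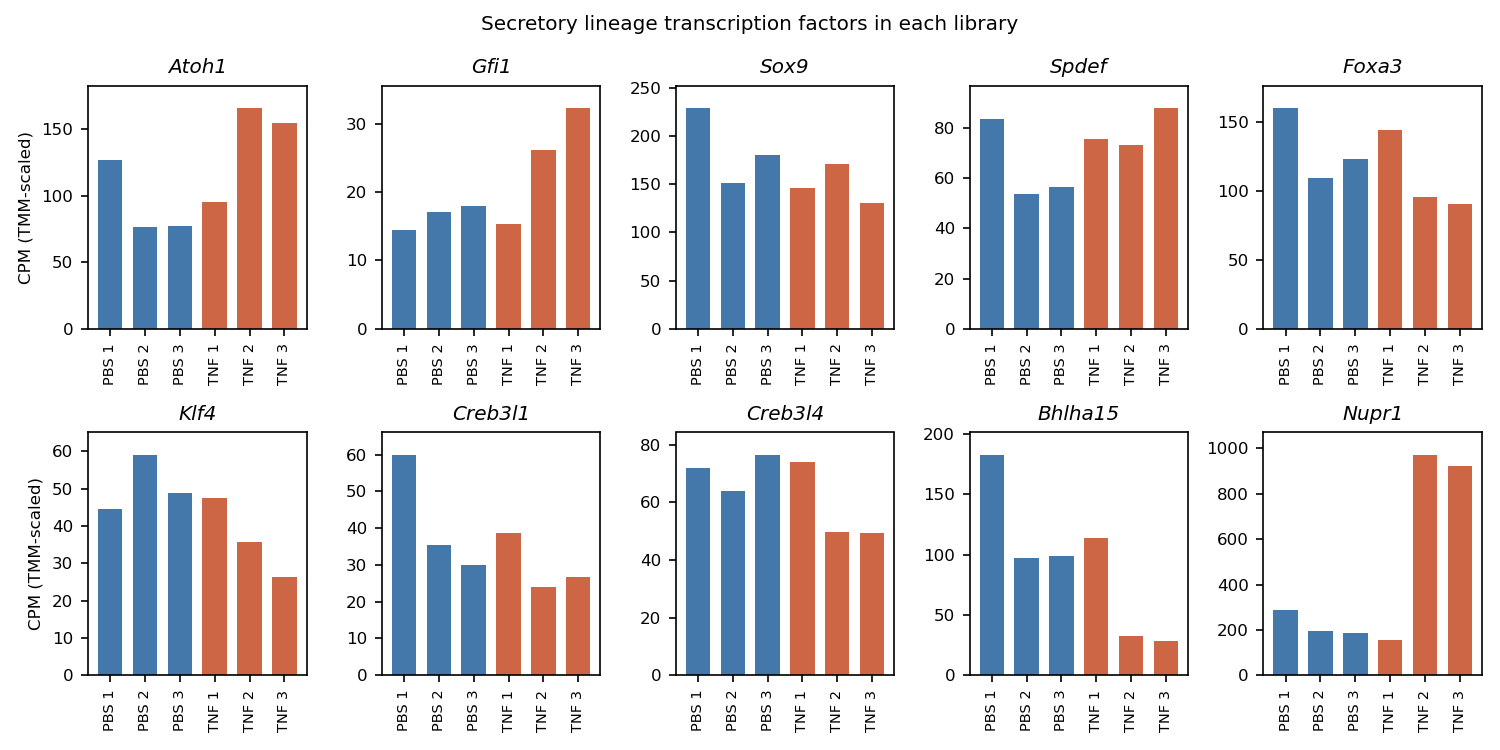
Bars give the TMM-scaled CPM of each regulator in each of the 6 libraries (blue PBS, red TNF), on linear axes that start at 0 and differ between panels. TNF replicates 2 and 3 stand above all PBS libraries for Nupr1, Atoh1 and Gfi1 and below them for Bhlha15, while TNF replicate 1 sits near the PBS libraries.

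Without TNF replicate 1, 3 of the 10 members passed 5% with edgeR, where 14.5% of all 13660 tested genes did. Nupr1 and Gfi1 rose (9.10% of all genes were called higher) and Bhlha15 fell (5.40% were called lower). TNF replicates 2 and 3 both lay outside the PBS range for 8 of the 10 members, beside 45.7% of all genes. They lay above it for Atoh1, Gfi1 and Nupr1 (24.1% of all genes) and below it for Bhlha15, Creb3l1, Creb3l4, Klf4 and Foxa3 (21.6%). TNF replicate 1 was within the PBS range for 8 members, and 45.2% of all genes had it there. The 2 exceptions were Nupr1 and Sox9, for which TNF replicate 1 was below every PBS library.

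Other settings on all 6 libraries called some members. With no filter on low counts, edgeR called Nupr1 higher (adjusted p 3.24e-04) and Bhlha15 lower (0.00288), where 2.94% of all genes were called, 2.10% higher and 0.849% lower. With limma-voom and sample weights, Nupr1 (adjusted p 0.0115) and Atoh1 (0.0275) were called higher and Bhlha15 (0.0122) and Klf4 (0.0413) lower, where 11.5% of all genes were called, 7.06% higher and 4.47% lower.

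**Figure D2:**
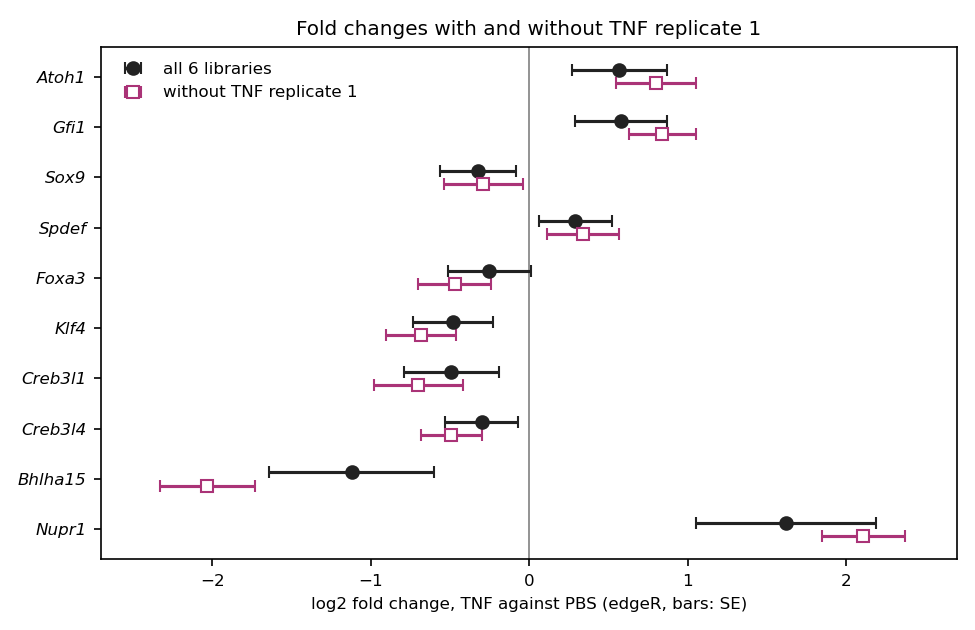
Points give the edgeR log2 fold change of each regulator, TNF against PBS, with bars of 1 SE, over all 6 libraries (filled circles) and without TNF replicate 1 (open squares). Nupr1 moves from 1.62 to 2.11 and Bhlha15 from -1.12 to -2.03 when that library is left out, and all 10 regulators keep their sign.

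Among the factors that set secretory fate, Atoh1 (ENSMUSG00000073043, GRCm39 chromosome 6, 64706109 to 64708229, the build used for all positions) was measured at 127, 76.3 and 77.6 CPM in the PBS mice, replicates 1 to 3, and at 95.1, 166 and 155 CPM in the TNF mice, in the same order of replicates. The highest of the 6 were TNF replicates 2 and 3, and TNF replicate 1 lay between the PBS values. The group means were 93.6 ± 28.9 and 139 ± 38.1 CPM (SD, n = 3), a log2 fold change of 0.57 ± 0.30 (SE, with an edgeR adjusted p of 0.472). On the 5 libraries other than TNF replicate 1 it was 0.80 ± 0.25 (SE, with an edgeR adjusted p of 0.0565), just outside 5%, and it passed with DESeq2 on the same 5 libraries (adjusted p 0.0276), where DESeq2 called 17.4% of all genes (9.62% higher and 7.75% lower).

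Gfi1 (ENSMUSG00000029275, chromosome 5, 107864523 to 107873902) was measured at 14.4, 17.1 and 18.0 CPM in the PBS mice and at 15.4, 26.1 and 32.3 CPM in the TNF mice. Its PBS libraries were close together, with a coefficient of variation (CV) of 11.4%. The log2 fold change was 0.58 ± 0.29 (SE, with an edgeR adjusted p of 0.448), and 0.84 (SE 0.21, adjusted p 0.0230) without TNF replicate 1. An antisense transcript that shares 880 bases of the locus, A430072P03Rik, had at most 4 counts in any library.

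Sox9 (ENSMUSG00000000567, chromosome 11, 112673009 to 112678586) was measured at 229, 151 and 180 CPM in the PBS mice and at 146, 171 and 130 CPM in the TNF mice. The groups overlapped, since TNF replicate 2 was above PBS replicate 2. Its log2 fold change was -0.32 ± 0.24 (SE, with an edgeR adjusted p of 0.614), and -0.29 without TNF replicate 1 (adjusted p 0.490), the smallest shift among the 10 members from leaving that library out. The antisense transcript BC006965 spans the locus and had at most 18 counts in any library.

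Of the maturation factors, Spdef (ENSMUSG00000024215, chromosome 17, 27933326 to 27947929) was measured at 83.7, 53.7 and 56.6 CPM in the PBS mice and at 75.7, 73.2 and 87.9 CPM in the TNF mice. Only PBS replicate 1 reached the level of the TNF libraries. The log2 fold change was 0.29 ± 0.23 (SE, with an edgeR adjusted p of 0.645) and 0.34 without TNF replicate 1 (adjusted p 0.384).

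Foxa3 (ENSMUSG00000040891, chromosome 7, 18747209 to 18757471) was measured at 160, 109 and 123 CPM in the PBS mice and at 144, 95.2 and 90.4 CPM in the TNF mice. The lowest of the 6 were TNF replicates 2 and 3, and TNF replicate 1 was the second highest. The difference was within the replicate spread, at -0.25 ± 0.26 (SE, with an edgeR adjusted p of 0.738), and at -0.47 without TNF replicate 1 (adjusted p 0.195).

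Klf4 (ENSMUSG00000003032, chromosome 4, 55527139 to 55532528) was measured at 44.5, 59.1 and 48.8 CPM in the PBS mice and at 47.4, 35.8 and 26.4 CPM in the TNF mice. TNF replicate 3 was the lowest library and TNF replicate 1 lay inside the PBS range. The log2 fold change was -0.48 ± 0.25 (SE, with an edgeR adjusted p of 0.471), and -0.68 without TNF replicate 1 (adjusted p 0.0606). On those 5 libraries DESeq2 called it lower (adjusted p 0.0253).

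Creb3l1, Creb3l4 and Bhlha15, the factors of secretory capacity, were each below the PBS range in TNF replicates 2 and 3. Creb3l1 (ENSMUSG00000027230, chromosome 2, 91812673 to 91854917) was measured at 60.0, 35.4 and 30.0 CPM in the PBS mice and at 38.6, 24.1 and 26.6 CPM in the TNF mice. PBS replicate 1 alone was at 60.0 CPM, and the other 5 libraries spanned 24.1 to 38.6 CPM. The log2 fold change was -0.49 ± 0.30 (SE, with an edgeR adjusted p of 0.534), which became -0.13 without PBS replicate 1 and -0.70 without TNF replicate 1 (adjusted p 0.126).

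Creb3l4 (ENSMUSG00000027938, chromosome 3, 90144103 to 90150845) had the tightest PBS values, at 71.9, 64.0 and 76.6 CPM (CV 9.05%). TNF replicate 1 was among them at 74.1 CPM, and TNF replicates 2 and 3 were below them at 49.8 and 49.4 CPM. The log2 fold change was -0.30 ± 0.23 (SE, with an edgeR adjusted p of 0.624) and -0.49 without TNF replicate 1 (adjusted p 0.111). Its locus overlaps Jtb on the other strand over 6510 bases, and the use of strand in counting is not given in the sources used here, so its level is uncertain.

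Bhlha15 (ENSMUSG00000052271, chromosome 5, 144127086 to 144131259) was measured at 183, 97.6 and 99.1 CPM in the PBS mice and at 114, 32.4 and 28.5 CPM in the TNF mice. Every other library was above TNF replicates 2 and 3, and TNF replicate 1 was above PBS replicates 2 and 3. The means were 127 ± 49.0 and 58.3 ± 48.3 CPM (SD, n = 3), a log2 fold change of -1.12 ± 0.52 (SE, with an edgeR adjusted p of 0.427). Once TNF replicate 1 was left out, it fell 4.09-fold (-2.03 ± 0.30 on the log2 scale, SE, with an edgeR adjusted p of 0.00133). Without PBS replicate 1, in which it was highest, the log2 fold change was -0.75 (adjusted p 0.646).

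Nupr1 (ENSMUSG00000030717, chromosome 7, 126222414 to 126230033) was measured at 288, 194 and 188 CPM in the PBS mice and at 156, 973 and 923 CPM in the TNF mice. TNF replicates 2 and 3 were each at 923 CPM or more, and TNF replicate 1 was the lowest of all 6 libraries. The means were 223 ± 56.4 and 684 ± 458 CPM (SD, n = 3), a log2 fold change of 1.62 ± 0.57 (SE, with an edgeR p of 0.0195 before and 0.328 after adjustment). It rose 4.31-fold without TNF replicate 1 (2.11 ± 0.26 on the log2 scale, SE, with an edgeR adjusted p of 4.11e-04). Reg3g, an antimicrobial lectin, split the TNF libraries in the same way, at 3010 CPM in TNF replicate 1 and 27700 and 36700 CPM in the other two, against 2410 to 2810 CPM in PBS.

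PBS libraries also differed among themselves. PBS replicate 1 was the highest PBS library for 7 of the 10 members and the lowest for 2, Gfi1 and Klf4. It was also the library with the lowest sum of tuft cell genes, and the part of these cells in the members' levels was not tested. Leaving out PBS replicate 1 moved the log2 fold changes of Foxa3 to -0.07, Sox9 to -0.15 and Spdef to 0.52, with edgeR adjusted p-values of 0.492 or more.

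Levels of different genes were compared only per kilobase of merged exons. In PBS, Foxa3 (63.9 ± 12.9 CPM per kb, SD, n = 3) and Nupr1 (58.2 ± 14.7) led the order of levels, followed by Sox9 (44.7 ± 9.50), Atoh1 (44.1 ± 13.6), Bhlha15 (36.1 ± 13.9), Creb3l4 (29.4 ± 2.66) and Spdef (28.1 ± 7.19). Klf4 (16.1 ± 2.38) and Creb3l1 (15.4 ± 5.90) came lower, and Gfi1 was last at 5.18 ± 0.591 CPM per kb. Neighbours overlapped in their PBS ranges except at Spdef (23.3 to 36.3) above Klf4 (14.1 to 18.8), and at Creb3l1 (11.1 to 22.1) above Gfi1 (4.52 to 5.66). The length matters for Nupr1: its merged exons cover 3831 bases but its canonical transcript only 829, and on the latter its PBS level was 269 ± 68.0 CPM per kb, the highest of the 10. In the TNF mean, Nupr1 was first at 179 ± 120 CPM per kb and Atoh1 second at 65.3 ± 18.0, while Bhlha15 moved from the fifth place to the seventh at 16.6 ± 13.8.

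Ratios within a library do not depend on scaling between libraries. There were 4.84, 4.23 and 4.90 Atoh1 counts per Hes1 count in the PBS mice, replicates 1 to 3, against 3.22, 20.1 and 17.5 in the TNF mice. The ratio of Atoh1 to Bhlha15 was 0.693, 0.782 and 0.783 in PBS and 0.833, 5.12 and 5.43 in TNF, and that of Nupr1 to Bhlha15 was 1.57, 1.98 and 1.89 in PBS and 1.37, 30.0 and 32.4 in TNF. In each of the 3 ratios, the PBS libraries and TNF replicate 1 lay close together and TNF replicates 2 and 3 lay far above them. Relative to Xbp1, Bhlha15 went the other way, at 0.594, 0.505 and 0.470 in PBS and 0.693, 0.248 and 0.177 in TNF. These ratios were chosen after the members' values were seen and are given without a test.

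**Figure D3:**
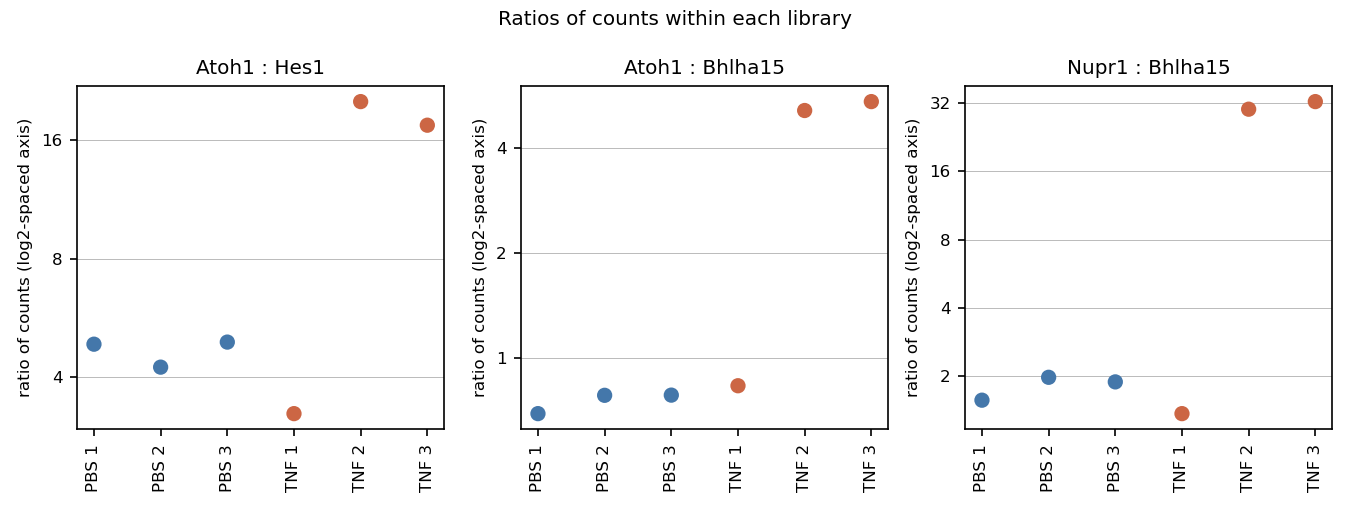
Points give the ratio of the counts of 2 genes within each library, on log2-spaced axes (blue PBS, red TNF). For Atoh1 to Hes1, Atoh1 to Bhlha15 and Nupr1 to Bhlha15, TNF replicates 2 and 3 lie above the other 4 libraries, at 17.5 or more, 5.12 or more and 30.0 or more.

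The shapes of the members' profiles over the 6 libraries were compared by the root mean square (RMS) difference of log2 CPM, after each gene's PBS mean was subtracted. Among the members, Creb3l4 and Foxa3 were most alike (0.153 log2 units) and Bhlha15 and Nupr1 least (2.38). Atoh1 was nearest to Spdef (0.308) and then Gfi1 (0.361). When every gene averaging 2 or more log2 CPM was searched, the nearest to Atoh1 were Pglyrp1 (0.0570) and Mfsd5 (0.0634), to Bhlha15 Cbs (0.121) and Lgals12 (0.133), and to Nupr1 Spns2 (0.129) and Clic4 (0.136). Itln1, a PC lectin, was nearest to Creb3l1 (0.0895), with Lig1 next (0.103). For the others the 2 nearest were Tbce and Dst (Gfi1), Dynlrb1 and Ifitm2 (Spdef), Eya3 and Ttc17 (Sox9), Dph6 and Rchy1 (Creb3l4), Pik3r1 and Tmem131l (Klf4), and Kpna2 and Serinc3 (Foxa3), all within 0.0923 log2 units.

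The Notch pathway, which sets Atoh1, was examined as a list of 22 genes, of which 17 could be tested. With edgeR over all libraries 0 passed 5% (0 at an unadjusted p under 0.05), DESeq2 called 0 and limma-voom with sample weights called 1, Notch1, as lower (adjusted p 0.0280). In the edgeR fit 4 had a positive and 13 a negative log2 fold change (median -0.26, and -0.28 without TNF replicate 1). The target and repressor Hes1 was measured at 26.2, 18.1 and 15.8 CPM in the PBS mice and at 29.5, 8.25 and 8.84 CPM in the TNF mice. TNF replicates 2 and 3 were the lowest and TNF replicate 1 the highest, and the log2 fold change was -0.37 with all libraries (edgeR adjusted p 0.786) and -1.21 without TNF replicate 1 (adjusted p 0.0131). With edgeR the same 5 libraries gave 4 of the 17 Notch pathway genes past 5%, all lower, where 5.40% of all genes were called lower. They were Hes1, the receptors Notch1 (-1.12, adjusted p 0.0363) and Notch2 (-1.28, 0.0230), and the ligand Dll4 (-0.84, 0.0232). DESeq2 called 5 on these libraries, all lower, where it called 7.75% of all genes lower. Dll1, the other ligand presented by PCs, was measured at 26.9, 28.2 and 29.3 CPM in the PBS mice and at 38.8, 20.2 and 10.4 CPM in the TNF mice, a log2 fold change of -0.28 (adjusted p 0.806) that was -0.85 without TNF replicate 1 (0.0608) and 0.07 without TNF replicate 3. Mib1, which primes the ligands, was lower in every TNF library (114 to 121 CPM) than in any PBS library (136 to 154 CPM). It was the only 1 of the 17 with groups that did not overlap, where 7.82% of all genes had TNF below. Mib1 did not pass with edgeR (-0.31, adjusted p 0.549, and -0.31, 0.340, without TNF replicate 1).

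The 12 transcription factors of ER stress, the closest partners of Creb3l1 and Creb3l4, gave 0 calls with edgeR over all libraries (6 at an unadjusted p under 0.05), 1 with DESeq2 (higher), 2 with edgeR and no low-count filter and 2 with limma-voom and sample weights (in both, 1 higher and 1 lower). In the edgeR fit 5 were positive and 7 negative, with a median of -0.32 that was -0.50 without TNF replicate 1 and turned to 0.11 without PBS replicate 2. Here 7 of the 12 had groups that did not overlap, 3 above and 4 below, against 9.07% and 7.82% of all genes. Xbp1, which activates the ER chaperone programme, was measured at 308, 193 and 211 CPM in the PBS mice and at 165, 131 and 161 CPM in the TNF mice, all TNF libraries being below all PBS libraries (-0.64 ± 0.26 on the log2 scale, SE, with an edgeR adjusted p of 0.368). Atf4 followed that order, from 231, 190 and 183 CPM to 177, 116 and 147 CPM (-0.46, SE 0.24, adjusted p 0.472), as did Atf6 and Atf6b. Atf5 went the other way, from 4.80 to 7.13 CPM in the PBS mice to 7.97, 19.3 and 21.2 CPM in the TNF mice (1.51, SE 0.38, adjusted p 0.270), and so did Creb3l3, the liver and gut member of the CREB3 family, from 0.288 to 1.03 CPM up to 1.78 to 4.44 CPM (2.18, adjusted p 0.297). The third gene above was Cebpb. Ddit3, which encodes CHOP, was low throughout at 0.928 to 3.00 CPM. Without TNF replicate 1, edgeR called Atf5 (1.85, adjusted p 9.74e-04), Creb3l3 (2.45, 0.0384) and Nfe2l1 (0.79, 0.0211) higher and 0 lower, with Xbp1 at -0.68 (0.108) and Atf4 at -0.60 (0.105). On those 5 libraries DESeq2 called 3 higher and 4 lower, Xbp1 (-0.72, adjusted p 0.0284) and Atf4 (-0.64, 0.0228) among the lower. Of all genes, edgeR called 9.10% higher and 5.40% lower without TNF replicate 1, and DESeq2 9.62% and 7.75%.

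**Figure D4:**
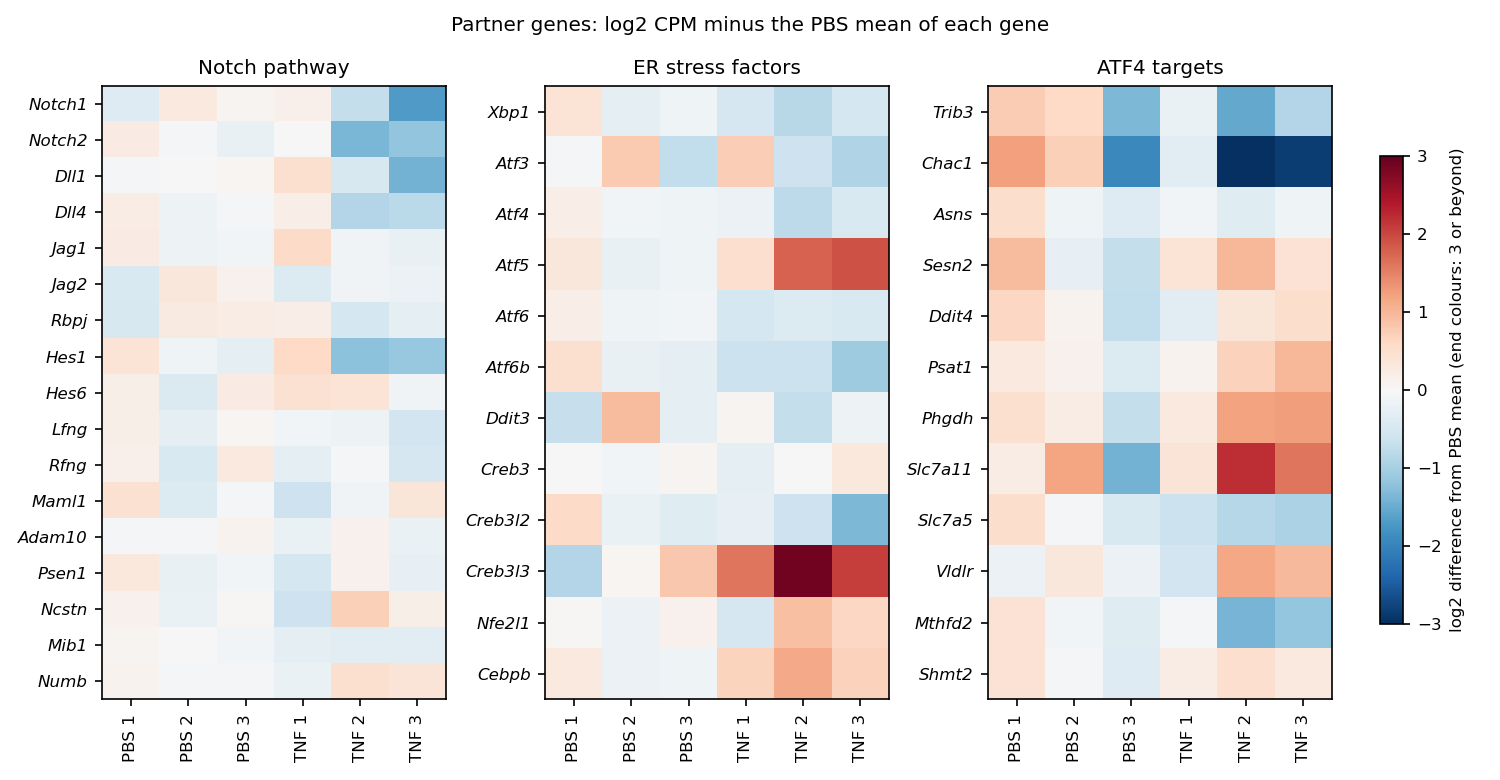
Colours give log2 CPM minus the gene's PBS mean for tested genes of the Notch pathway, ER stress and ATF4 target lists (rows) in the 6 libraries (columns). Hes1, Notch2 and Dll4 are below the PBS mean in TNF replicates 2 and 3 and near or above it in TNF replicate 1, whereas Xbp1 and Atf6 are below it in all 3 TNF libraries.

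Targets of these factors were also counted. Of 5 genes known as MIST1 targets, 4 were tested, and all 4 had negative log2 fold changes, from -0.40 (Atp2c2, a Golgi calcium pump) to -0.21 (Rab3d, a granule GTPase). With edgeR 0 passed 5% (0 at an unadjusted p under 0.05), as with DESeq2 and limma-voom, and 0 of the 5 tested passed without TNF replicate 1. The list's median was -0.31, which was -0.47 without TNF replicate 1, where Bhlha15 itself was at -2.03, and -0.02 without PBS replicate 1. Rab3d was measured at 338, 187 and 217 CPM in the PBS mice and at 189, 249 and 201 CPM in the TNF mice. Atp2c2 was below PBS in every TNF library (16.2 to 20.7 against 22.8 to 25.6 CPM), as were 7.82% of all genes. For the other 3 tested targets the groups overlapped. Nupr1 is an ATF4 target, and the 12 other ATF4 targets were mixed, with 7 positive and 5 negative log2 fold changes (median 0.22, 0.38 without TNF replicate 1 and -0.06 without PBS replicate 3). Over all libraries edgeR called 0 of them (3 at an unadjusted p under 0.05) and DESeq2 0, against 3 with edgeR and no low-count filter and 4 with limma-voom and sample weights. In the 5 libraries other than TNF replicate 1, Phgdh (1.16, edgeR adjusted p 0.0217), Psat1 (0.84, 0.0374) and Vldlr (1.06, 0.00782) were higher. Chac1 (-3.83, 0.00761), Mthfd2 (-1.30, 0.00644) and Slc7a5 (-0.94, 0.0403) were lower. Of all genes, 9.10% were called higher and 5.40% lower in that fit. Chac1 was uneven within PBS, at 39.8, 28.0 and 4.47 CPM, and at 13.6, 1.12 and 2.33 CPM in the TNF mice.

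Products of the 2 cell types these regulators specify gave 0 calls with edgeR over all libraries (3 goblet cell and 1 PC gene at an unadjusted p under 0.05). DESeq2 called 1 goblet cell product and 0 PC products, edgeR with no low-count filter 4 and 0, and limma-voom with sample weights 5 and 3. Goblet cell products had a median log2 fold change of -0.29 (14 genes, 4 positive and 10 negative, -0.69 without TNF replicate 1) and summed to 13100 to 14500 CPM in PBS and to 16600, 8530 and 12800 CPM in TNF replicates 1 to 3. A large part of each sum was Spink4, at 7520 to 8680 CPM in PBS and at 10900, 3930 and 7820 CPM in TNF. Spink4 did not pass with edgeR in either fit. On leaving out TNF replicate 1, 7 of the 14 fell, where 5.40% of all genes were called lower, and none rose. Among the 7 were Zg16 (-2.84, edgeR adjusted p 2.08e-04) and Fcgbp (-1.92, 0.00230). Klk1 (53.1 to 71.1 against 99.6 to 156 CPM) and Ern2 (42.4 to 68.6 against 70.1 to 115 CPM) were below PBS in every TNF library, as were 7.82% of all genes. For the other goblet cell products the groups overlapped. Of 12 PC products (median -0.13, and -0.56 without TNF replicate 1), 3 fell without that library, namely Clps (-2.13, 0.00434), Habp2 (-1.25, 0.0384) and Wnt3 (-1.03, 0.0247), and Pla2g2a rose (1.41, 0.00551). Of all genes, 5.40% were called lower and 9.10% higher there. Mmp7 was above PBS in every TNF library (7450 to 13700 against 5570 to 6880 CPM), as were 9.07% of all genes. Kit was below PBS in every TNF library (103 to 183 against 195 to 196 CPM), as were 7.82% of all genes. For the other PC products the groups overlapped. Lyz1 did not pass in either fit (0.17, adjusted p 0.938, and 0.05 without TNF replicate 1).

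A further 36 gut transcription factors, 33 of them tested, gave 0 calls with edgeR (4 at an unadjusted p under 0.05) and DESeq2 and 6 with limma-voom and sample weights, 1 higher and 5 lower. With edgeR 10 were positive and 23 negative, with a median of -0.32 (-0.37 without TNF replicate 1). Those with the smallest unadjusted p were Tcf7l2, the Wnt effector (-0.68, adjusted p 0.285, lower in all 3 TNF libraries), St18 (-1.04, 0.374) and Elf3 (-0.53, 0.387), which without TNF replicate 1 were at -0.68 (0.0520), -0.93 (0.193) and -0.40 (0.251). Of the 33, 5 including Tcf7l2 were below PBS in every TNF library and 0 above, beside 7.82% and 9.07% of all genes. Without TNF replicate 1, Mecom (0.71, 0.0301) and Klf6 (0.84, 0.0221) were higher, and Gata4 (-1.85, 7.61e-04), Sox4 (-1.11, 0.00745), Ascl2 (-2.17, 0.0137) and Nkx2-2 (-2.13, 0.0121) were lower. In that fit 9.10% of all genes were called higher and 5.40% lower. Of the factors that drive other secretory fates, the enteroendocrine factors Neurog3 and Neurod1 ranged over 0 to 3.24 and 0.216 to 2.33 CPM, and Pou2f3, the tuft cell factor, over 17.5 to 53.2 CPM.

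Markers of other cells followed the split between TNF libraries in some lists but not in others. The tuft cell genes did not, at 639 and 687 CPM in TNF replicates 1 and 3 and 1240 CPM in replicate 2. Of 11 tested enterocyte genes, 3 were below PBS in every TNF library, namely Apoa1, Apob and Sis, as were 7.82% of all genes. Apoa1 was at 8.51 to 14.8 CPM in PBS and at 0.424, 0.439 and 0 CPM in TNF. With edgeR over all libraries 0 genes of the tuft, enteroendocrine, stem cell, cell cycle, enterocyte and immune lists passed 5%, and 1, 2, 1, 3, 4 and 0 had an unadjusted p under 0.05. DESeq2 called 1 enteroendocrine and 2 enterocyte genes, and limma-voom with sample weights called 1 enteroendocrine, 4 stem cell, 8 cell cycle and 6 enterocyte genes. With no low-count filter, edgeR called 3 tuft, 4 enteroendocrine, 4 cell cycle and 7 enterocyte genes. The medians of the 6 lists were -0.70, -0.20, -0.35, -0.59, -0.48 and 0.34 over all libraries and -0.45, -0.41, -0.57, -1.30, -2.02 and 0.27 without TNF replicate 1. In edgeR's fit without TNF replicate 1, 8 of 16 cell cycle genes, 8 of 14 enterocyte genes and 4 of 11 stem cell genes fell. There 0 of 12 tuft cell genes passed, 2 of 12 tested enteroendocrine genes rose and 1 fell, and 1 of 4 immune genes, S100a9, rose. Of all genes, 9.10% were called higher and 5.40% lower in that fit. The stem cell genes summed to 2830 to 3440 CPM in PBS and to 4990, 1120 and 975 CPM in TNF replicates 1 to 3. For the cell cycle genes these sums were 331 to 536 CPM, then 431, 172 and 181 CPM. Olfm4 alone made up most of the stem cell sum in the PBS mice (1920 to 2370 CPM) and TNF replicate 1 (3880 CPM). It was at 232 and 272 CPM in TNF replicates 2 and 3. Without TNF replicate 1, Smoc2 (-1.11), Tnfrsf19 (-1.55) and Cdca7 (-1.78) also passed as lower. Lgr5 (-0.25), Slc12a2 (0.05), Znrf3 (0.17) and Msi1 (-0.03) moved little, so the sum does not describe every stem cell gene. The part of these other cells in the levels of the 10 regulators was not tested.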

How the data were processed

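RNA from sorted PCs of 6 mice was sequenced single-end on an Element AVITI instrument. The authors deposited whole-number read counts per Ensembl gene. The submitters' processing notes name FastQC, Trimmomatic 0.39, STAR 2.7.10a, DESeq2 and the mm39 build. The counting tool, its annotation, its use of strand and its treatment of multiply mapped reads are not stated by any source used here, so counts of overlapping genes are uncertain. Identifiers were matched to GENCODE vM39, and 0.0193% of counts belonged to unmatched identifiers.

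Genes were filtered with filterByExpr (minimum count 10, minimum total 15), scaled by TMM and tested with the quasi-likelihood test of edgeR 4.0.16 in R 4.3.3, TNF against PBS, with Benjamini-Hochberg adjustment over all tested genes. SEs were derived from the F statistic. DESeq2 1.42.0, limma-voom (limma 3.58.1) with and without sample weights, other scaling and filters, and leaving out each library were alternatives. DESeq2 without TNF replicate 1 and the canonical transcript length were added after the data were seen. Profiles used log2 CPM with a prior count of 2. The scripts were tested on simulated data. Each library was 1 mouse. Counting errors cover counting only, and no molecular identifiers are described.

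The members and gene lists were chosen with earlier results of these data known. Named genes were all members, fixed Notch, ER stress and PC genes, and the 2 nearest profiles. The 3 genes with the smallest p were also named for the Notch, ER stress, ATF4 target and gut transcription factor lists. In the remaining lists, the genes with the smallest p were not all named. Values for other list genes, such as those past 5% without TNF replicate 1, were chosen after their values were seen. Promoters, 300 bases around the canonical start, were read from GRCm39.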

Additional observations from a re-analysis of the deposited data

How the results depend on the processing

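All 10 members kept the sign of their log2 fold change in all 160 combinations of member and alternative. With all 6 libraries, edgeR called 0 genes and 0 members. Without the low-count filter it called 690 genes and 2 members (Nupr1 higher, Bhlha15 lower). DESeq2 called 242 genes and 0 members. Limma-voom with sample weights, which gave TNF replicate 1 the lowest weight (0.331), called 1501 genes and 4 members (Atoh1 and Nupr1 higher, Bhlha15 and Klf4 lower). Leaving out 1 library at a time gave 0 to 1980 genes and 0 to 3 members, the upper values being those without TNF replicate 1. Leaving out any other library gave 0 genes and 0 members. DESeq2 without TNF replicate 1 called 2373 genes and 5 members (Atoh1, Gfi1 and Nupr1 higher, Bhlha15 and Klf4 lower). With 1 library left out, Dll1 ran from -0.85 to 0.07 (positive without TNF replicate 3) and Ddit3 from -0.71 to 0.24 (positive without PBS replicate 2), and the cause was not tested. With the replicate number as a block, 0 genes and 0 members passed (1395 genes and 1 member at an unadjusted p under 0.05). That member was Bhlha15 (edgeR p 0.00224). Nupr1, the 1 member under 0.05 without the block, was at 0.0964 with it. The labels do not say whether same-numbered libraries were handled together. Their deviations from the group means correlated at -0.01, -0.07 and 0.03, which cannot decide it with 3 libraries per group. Scaling by library size alone moved the median of all genes to -0.11. The effect of depth on the calls was not tested.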
